A study of Mus musculus with 12 samples.

Results

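Gonadal white fat of mice that lack Gadd45a was set directly against that of mice that lack Ing1. The comparison holds all arrays carrying either single-knockout label, 3 Gadd45a-KO and 3 Ing1-KO arrays, which are 6 of the 12 arrays of the study. The Gadd45a-KO animals are Gadd45a-/- with intact Ing1, and the Ing1-KO animals are Ing1-/- with intact Gadd45a, so neither group is an unmodified control. Both groups are untreated male mice of strain C57BL/6N, aged 59 to 67 days, and both come from interbreeding of the 2 mutant lines, which also gave double mutants (Gadd45a-/-;Ing1-/-, DKO) and wild types (WT). Both deletions are labelled simply as deficiencies of the animal, with no promoter or cell type named, and RNA of 3 animals was pooled for each array, so that 9 animals stand behind each genotype and the spread between single animals is not seen. The 3 DKO and 3 WT arrays enter through the filter on dim probes, which counts all 12 arrays, through the fit's estimate of the spread and through each gene's mean over 12 arrays in the levels of gene lists; their own levels are given only where named.

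GADD45A is a small nuclear protein that cells make after DNA damage and other stress; it binds the MAP kinase kinase kinase MEKK4, takes part in DNA repair, and has been described as an adaptor in active DNA demethylation. ING1 is a reader of trimethylated lysine 4 on histone H3, the mark of active promoters, and a subunit of the Sin3 histone deacetylase complex. White fat stores triglyceride in adipocytes, and beside them it holds macrophages, dendritic cells, lymphocytes, granulocytes, vessels and fibroblast-like progenitors, whose transcripts all appear in RNA from whole tissue.

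The arrays are one-colour Agilent arrays, read with Cy3. All values below are normalized log2 signals, the log2 of the background-subtracted signal after a shift that gives each array the same 75th percentile, and a difference between groups is a log2 fold change, Gadd45a-KO minus Ing1-KO, with its standard error (SE). The 75th percentile of the processed signal lay between 667 and 791.5 intensity units on the Gadd45a-KO arrays and between 731.4 and 894.2 units on the Ing1-KO arrays. Between 60.04% and 68.11% of spots on the Gadd45a-KO arrays and between 59.51% and 67.42% on the Ing1-KO arrays were well above background. This share was higher on arrays in the second row of a slide, which holds 2 of the Gadd45a-KO and 1 of the Ing1-KO arrays. Defining adipocyte markers were bright on all 6 arrays, with the adiponectin gene Adipoq, chosen here as a defining marker, at 16.78, 16.32 and 16.63 in Gadd45a-KO and 17.32, 16.97 and 16.94 in Ing1-KO. A pair of arrays stood apart in transcripts of other cells. Gadd45a-KO replicate 1 was highest in neutrophil transcripts, and Ing1-KO replicate 1 was highest in skeletal muscle transcripts.

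Ing1 had the smallest p of all features, and it was low where the labels say it should be. On its brightest probe, Ing1 had 12.50, 12.37 and 12.78 in the Gadd45a-KO arrays, against 9.28, 9.54 and 9.37 in the Ing1-KO arrays. The groups lay far apart, Ing1 being 3.15 ± 0.14 higher in Gadd45a-KO on the log2 scale (SE, n = 3 arrays each), which is 8.91-fold, and an adjusted p of 1.46e-06 in the limma fit. A second Ing1 probe read 10.79, 10.92 and 11.17 in Gadd45a-KO, against 3.20, 4.73 and 4.29 in Ing1-KO, where 1 of the 3 arrays was not above background, and the dimmest was above background on 3 of 3 Gadd45a-KO and 0 of 3 Ing1-KO arrays, at least 21.3-fold higher in Gadd45a-KO. The single Gadd45a probe went against its label. It read 10.27, 10.19 and 10.05 in the arrays labelled Gadd45a-KO, against 9.29, 9.25 and 9.06 in the Ing1-KO arrays. The arrays labelled as lacking Gadd45a were the higher ones without overlap, by 0.97 ± 0.13 (adjusted p 0.0228). Where this probe lies relative to the deleted part of Gadd45a is not given in the sources used here, so it does not tell which animals lack the gene, and Gadd45a-KO stands below for the arrays labelled so. The Gadd45a difference lost its call when any 1 of the 6 arrays was left out, at values of 0.90 to 1.03.

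**Figure D1:**
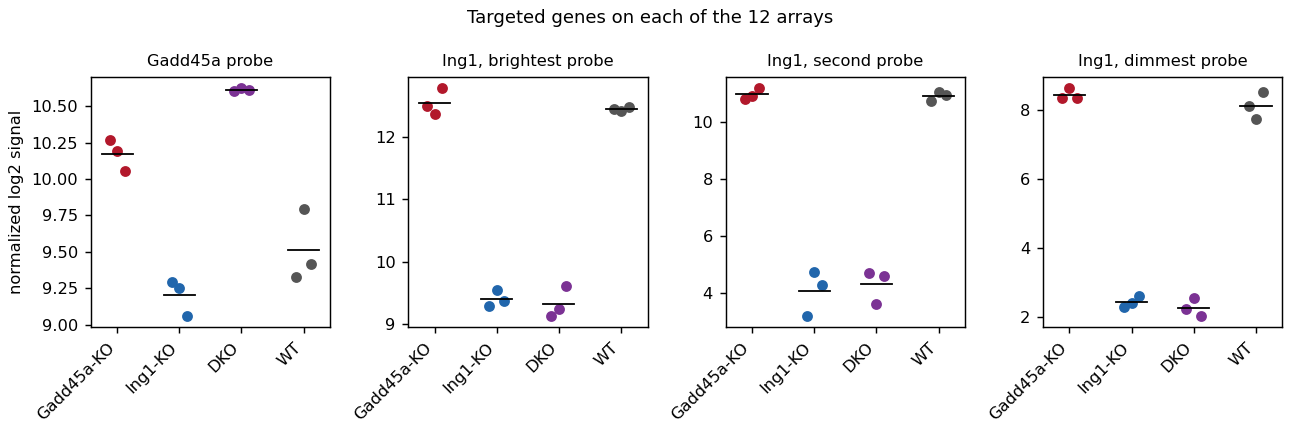
Normalized log2 signal of the Gadd45a probe and of 3 Ing1 probes on each array (points) with the group mean (line), for Gadd45a-KO, Ing1-KO, DKO and WT; each panel has its own axis range. The Ing1-KO and DKO arrays are low on each Ing1 probe, whereas the Gadd45a-KO and DKO arrays, at 10.05 and above, are the high ones on the Gadd45a probe.

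Across the array 77 of 31453 features passed the threshold of 0.05 on the adjusted p (0.245%), where a feature is a named gene or an unnamed probe. Of these, 60 were higher in Gadd45a-KO (0.191%) and 17 were lower (0.054%), so that 77.9% of the calls were higher, or 65.5% of 29 calls when each array was centred on its median. The change was at least 2-fold for 34 of the higher and 10 of the lower ones. A gene symbol was available for 62 of the 77, and the 15 without one are given as counts except where their position is named. The median log2 fold change was 1.05 among the higher and -1.24 among the lower features, against 0.04 over all features. For each of the 77 the 3 arrays of one group lay above all 3 of the other, which held for 30.7% of all features. An unadjusted p under 0.05 was found for 5092 features (16.2%). The smallest p that an exact permutation test allows with these groups is 0.1, so single genes were judged by the limma fit alone.

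The number of calls rests on all 6 arrays and moves with array position. Without Gadd45a-KO replicate 1, 2 or 3 it was 1, 2 and 1, and without Ing1-KO replicate 1, 2 or 3 it was 1, 4 and 7. Arrays of the other genotypes counted too, since they enter the estimate of the spread: the number was 151 without WT replicate 2, and 45, 238 and 167 without DKO replicate 1, 2 or 3. With array row as a block it was 21, and with array column as a block it was 2, the genes Ing1 and Spaca1. All 77 features kept their direction and an unadjusted p under 0.05 in each of these fits.

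**Figure D2:**
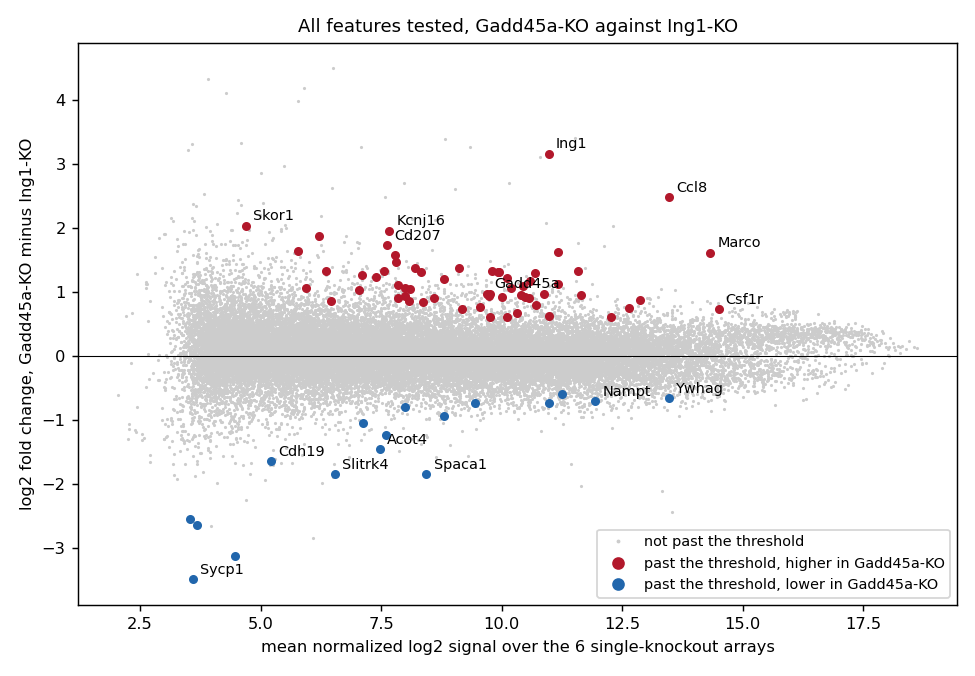
Log2 fold change of Gadd45a-KO minus Ing1-KO against the mean normalized log2 signal of the 6 arrays, 1 point per feature tested (31453). The 60 features past the threshold and higher in Gadd45a-KO are red, the 17 lower ones blue, and Ccl8 and Marco stand out as bright genes with a large difference.

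Ing1 aside, the largest rise among named genes past the threshold was in a chemokine gene that draws monocytes. Ccl8 had 14.83, 14.93 and 14.35 in Gadd45a-KO, against 12.55, 11.47 and 12.67 in Ing1-KO. Every Gadd45a-KO array lay more than 1 unit above every Ing1-KO array, and the difference was 2.47 ± 0.29 (SE, n = 3 arrays each; adjusted p 0.0199), or 5.56-fold. Within the 3 slides it was 2.28, 3.46 and 1.68. Its neighbour Ccl12, another monocyte attractant and a gene named here after its value was seen, read 10.87, 10.67 and 10.64 in Gadd45a-KO, against 9.30, 9.51 and 9.71 in Ing1-KO. The groups did not overlap, and the difference was 1.22 ± 0.15 (adjusted p 0.0199). Of 17 measured CC and CXC chemokines these 2 rose and none fell, with a list median of 0.55, against 0.04 over all features. Among the members that did not pass were Cx3cl1, the ligand of Cx3cr1, with 0.45 ± 0.11 and an adjusted p of 0.112, and Ccl4 with 0.85 ± 0.23 and an adjusted p of 0.139.

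The genes that rose included receptors and enzymes of macrophages, dendritic cells and neutrophils. Marco, a scavenger receptor of macrophages, had 15.38, 15.36 and 14.64 in Gadd45a-KO, against 13.50, 13.13 and 13.94 in Ing1-KO. The groups were apart by 1.61 ± 0.28 (adjusted p 0.0437), a 3.04-fold difference on one of the brightest probes among the calls. Clec4n, which encodes a lectin receptor of myeloid cells for fungal sugars, had 12.05, 12.29 and 11.55 in Gadd45a-KO, against 10.12, 10.25 and 10.69 in Ing1-KO, a difference of 1.61 ± 0.25 (adjusted p 0.0293). The lowest Gadd45a-KO array still lay above the highest Ing1-KO array. Cd207, the langerin gene of Langerhans-type dendritic cells, had 7.97, 8.76 and 8.70 in Gadd45a-KO, against 7.10, 6.51 and 6.65 in Ing1-KO, a difference of 1.73 ± 0.26 (adjusted p 0.0252). Here the slides differed, with 0.88, 2.25 and 2.05. Cxcr2, a chemokine receptor by which neutrophils find inflamed tissue, was even within both groups, with 8.90, 8.85 and 8.91 in Gadd45a-KO, against 7.65, 7.32 and 7.58 in Ing1-KO, and differed by 1.37 ± 0.20 (adjusted p 0.0239). Padi4, an enzyme that turns arginine into citrulline in neutrophil chromatin, rose by 1.64 ± 0.24 (adjusted p 0.0239). Markers of neutrophils as a list stood at 3.20, 1.51 and 0.33 in Gadd45a-KO, against -0.04, -0.76 and -0.88 in Ing1-KO, as the median deviation of 15 genes from their means over the 12 arrays. Cxcr2 did not follow the wide spread of that list within Gadd45a-KO, and the part of neutrophil number in these calls was not tested. Mcoln2, an endolysosomal cation channel, rose by 1.33 ± 0.19 (adjusted p 0.0239) and Lilra6, an immunoglobulin-like receptor of myeloid cells, by 1.29 ± 0.18 (adjusted p 0.0228). Lilra6 has near-identical paralogs, the Pira and Pirb genes, so its probe may read more than 1 of them. RNA from whole tissue cannot tell fewer cells of a type from less RNA per cell.

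The promoters of both chemokine genes that rose and of Marco are shown as examples of rises, and each holds the letters marked below. Whether these genes share a regulator was not tested. Each line gives the 250 bases upstream of the transcription start, from RefSeq on GRCm38.p6, in the direction of the gene, and the capitals mark GAGGAA or its reverse complement, the core letters bound by Ets factors of the PU.1 kind in myeloid cells. Ccl8 is at chr11:82114935-82115184 (+), Ccl12 at chr11:82101595-82101844 (+) and Marco at chr1:120505025-120505274 (-).
Ccl8: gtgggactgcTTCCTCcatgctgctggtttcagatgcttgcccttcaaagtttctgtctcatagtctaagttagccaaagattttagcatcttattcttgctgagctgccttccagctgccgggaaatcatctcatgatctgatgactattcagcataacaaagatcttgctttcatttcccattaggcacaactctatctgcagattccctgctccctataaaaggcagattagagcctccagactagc
Ccl12: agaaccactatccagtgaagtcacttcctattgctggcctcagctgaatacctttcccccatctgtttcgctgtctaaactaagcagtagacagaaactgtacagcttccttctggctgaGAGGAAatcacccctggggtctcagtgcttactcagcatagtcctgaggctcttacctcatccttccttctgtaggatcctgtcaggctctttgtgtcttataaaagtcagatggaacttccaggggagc
Marco: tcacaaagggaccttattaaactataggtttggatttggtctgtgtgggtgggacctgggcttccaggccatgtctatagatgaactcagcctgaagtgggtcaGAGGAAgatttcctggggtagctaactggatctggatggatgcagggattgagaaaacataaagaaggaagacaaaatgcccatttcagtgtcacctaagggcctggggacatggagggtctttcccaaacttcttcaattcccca
GAGGAA stood in 18 of the 44 promoters of genes higher in Gadd45a-KO that the table holds (40.9%) and in 0 of the 9 promoters of lower genes, against 23.1% of the 27025 promoters of the table. In all, 8 motifs were searched on both strands, none of which contains another. They included GAGGAA, the nuclear receptor binding unit AGGTCA, the TATA box as TATAAA and the E-box of clock factors as CACGTG. The C/EBP site was searched as TTGCGCAA. The pattern TTGNNNCAA was searched too, but it is longer and cannot match that site. Given by name alone are the core of the interferon-stimulated response element and an NF-kappaB site. A match describes the letters and not a binding site.

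Further genes past the threshold, named here after their values were seen, are also known from macrophages. Csf1r, the receptor for the growth factor on which macrophages depend, had 14.85, 14.96 and 14.76 in Gadd45a-KO, against 14.30, 14.03 and 14.08 in Ing1-KO, a difference of 0.72 ± 0.12 (adjusted p 0.0413). Cx3cr1, the fractalkine receptor of monocytes and macrophages, had 10.87, 11.12 and 10.98 in Gadd45a-KO, against 9.77, 10.04 and 9.90 in Ing1-KO, a difference of 1.09 ± 0.15 (adjusted p 0.0228). The groups did not overlap for either gene, and the within-slide differences of Cx3cr1 were 1.11, 1.08 and 1.09. Spic, a transcription factor of iron-recycling macrophages, rose by 1.17 ± 0.20, and the cholesterol exporter gene Abcg1 and the cholesterol ester hydrolase gene Nceh1 rose by 0.74 ± 0.11 and 0.96 ± 0.15. The sialic acid receptor gene Cd33 rose by 1.05 ± 0.17, and 2 members of the Cd300 family of paired receptors, Cd300c2 and Cd300ld, by 1.05 ± 0.17 and 0.95 ± 0.14. Slco2a1, a prostaglandin transporter, rose by 0.93 ± 0.13, Hpse, the heparan sulfate cleaving heparanase, by 0.92 ± 0.14, and Tnfrsf11a, which encodes RANK, by 0.66 ± 0.10. The adjusted p of these 9 genes, from Spic on, lay between 0.0236 and 0.0424, and the paralogs of the Cd300 family may share signal. Gpr34, a lysophosphatidylserine receptor of macrophages and microglia, rose by 0.85 ± 0.14, and Pirb, an inhibitory receptor, by 0.88 ± 0.15.

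The other large rises were in genes not known chiefly from immune cells. Kcnj16, an inwardly rectifying potassium channel, had 8.75, 8.90 and 8.29 in Gadd45a-KO, against 6.68, 6.29 and 7.11 in Ing1-KO, and rose by 1.95 ± 0.26 (adjusted p 0.0199) without overlap. Skor1, a corepressor of the Ski family, was above background on 3 of 3 Gadd45a-KO arrays, at 5.67, 5.97 and 5.48, and on 0 of 3 Ing1-KO arrays on the probe tested. The signal of this probe was at least 3.15-fold higher in Gadd45a-KO. The limma adjusted p of 0.0280 belongs to the measured difference and not to the bound. At its smallest over the alternatives the log2 fold change of Skor1 was 0.67, less than the bound. Another Skor1 probe was above background in Ing1-KO, so the bound holds for the tested probe and not for the gene. Wdr95, a WD-repeat gene, rose by 1.86 ± 0.32, the secreted Wnt inhibitor gene Wif1 by 1.32 ± 0.21, the carboxylesterase gene Ces2e by 1.31 ± 0.22 and the adhesion receptor gene Adgrb2 by 1.23 ± 0.21. The adjusted p of these 4 genes lay between 0.0302 and 0.0433, and their groups did not overlap.

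The genes lower in Gadd45a-KO than in Ing1-KO were of mixed kinds. Spaca1, a membrane protein gene of the sperm acrosome, had 7.39, 7.72 and 7.43 in Gadd45a-KO, against 9.33, 9.34 and 9.42 in Ing1-KO. It fell by 1.85 ± 0.19 on the log2 scale (adjusted p 0.00778), with no overlap and little spread within either group. Slitrk4, a synaptic adhesion gene on the X chromosome, had 5.88, 5.43 and 5.52 in Gadd45a-KO, against 7.92, 7.32 and 7.15 in Ing1-KO, and fell by 1.86 ± 0.24 (adjusted p 0.0199). Acot4, a peroxisomal acyl-CoA thioesterase that releases succinate, had 6.68, 6.79 and 6.76 in Gadd45a-KO, against 8.31, 7.86 and 8.45 in Ing1-KO. It fell by 1.46 ± 0.18 (adjusted p 0.0199) and was lower in each Gadd45a-KO array by at least 1 unit. Nampt, the rate-limiting enzyme of NAD salvage, had 11.64, 11.68 and 11.43 in Gadd45a-KO, against 12.15, 12.33 and 12.41 in Ing1-KO, and fell by 0.71 ± 0.11 (adjusted p 0.0252).

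The remaining falls by the rule were smaller or dimmer. Cdh19, a cadherin of Schwann cells, had 4.46, 4.72 and 3.96 in Gadd45a-KO, where 2 of 3 arrays were above background, against 6.01, 6.00 and 6.09 in Ing1-KO, and fell by 1.65 ± 0.22 (adjusted p 0.0218). Over the alternatives the log2 fold change of Cdh19 lay between -1.9 and -0.503. Fsd2, a muscle protein gene with a SPRY domain, fell by 1.24 ± 0.20, the autophagy receptor gene Optn by 0.95 ± 0.16 and the selenophosphate synthetase gene Sephs2 by 0.80 ± 0.14. Sowahc, an ankyrin-repeat gene, fell by 0.74 ± 0.13, Ywhag, which encodes an adaptor that binds phosphorylated proteins, by 0.66 ± 0.11, and the small membrane protein gene Smim19 by 0.60 ± 0.09. Their adjusted p lay between 0.0264 and 0.0455, and for each of them the 3 Gadd45a-KO arrays were below all 3 Ing1-KO arrays.

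The promoters of Spaca1, the fall with the smallest adjusted p, and of Acot4, the enzyme of lipid metabolism among the large falls, are shown with AGGTCA or its reverse complement, the binding unit of nuclear receptors, in capitals. Where the table holds more than 1 start for a gene, as for Spaca1, the first is used. Spaca1 is at chr4:34050066-34050315 (-) and Acot4 at chr12:84038129-84038378 (+) on GRCm38.p6, again the 250 bases upstream from RefSeq in the direction of the gene.
Spaca1: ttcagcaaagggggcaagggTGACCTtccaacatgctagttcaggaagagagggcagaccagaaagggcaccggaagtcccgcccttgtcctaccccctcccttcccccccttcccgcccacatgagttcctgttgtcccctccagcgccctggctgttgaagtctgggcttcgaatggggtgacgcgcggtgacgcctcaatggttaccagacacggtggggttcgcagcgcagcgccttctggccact
Acot4: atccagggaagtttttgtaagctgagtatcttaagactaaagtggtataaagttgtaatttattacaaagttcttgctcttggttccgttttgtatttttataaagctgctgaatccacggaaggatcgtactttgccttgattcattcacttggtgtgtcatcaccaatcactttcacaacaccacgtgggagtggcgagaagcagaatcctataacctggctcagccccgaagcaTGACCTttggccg
AGGTCA stood in 4 of the 9 promoters of lower genes and in 5 of the 44 of higher genes, against 13.8% of all promoters. Of the other motifs, CACGTG stood in 3 of 9 and 5 of 44, against 6.05% of all, TATAAA in 2 of 9 and 6 of 44, against 13.0%, and TTGNNNCAA in 0 of 9 and 5 of 44, against 5.11%. The NF-kappaB site stood in 1 of 9 and 2 of 44, against 1.4% of all, the interferon element in 1 of 9 and 0 of 44, against 3.04%, and TTGCGCAA in 0 of both, against 0.17%.

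**Figure D3:**
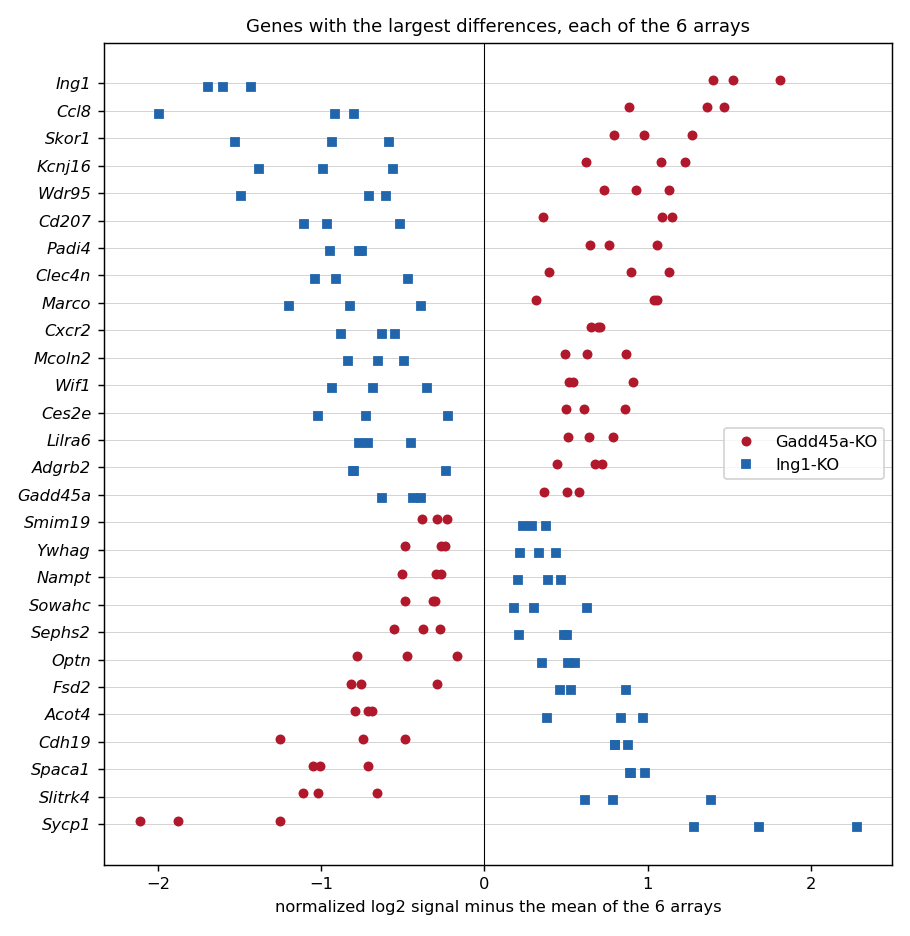
Normalized log2 signal of each array minus the mean of the 6 arrays, for the 28 genes named by rule (rows), with Gadd45a-KO arrays as red circles and Ing1-KO arrays as blue squares. In each row the 3 circles lie apart from the 3 squares, and Ccl8, Ing1 and Sycp1 are the most widely separated.

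Some of the dimmest calls were above background in only one of the compared groups. Sycp1, which builds the synaptonemal complex of meiotic chromosomes, was above background on 0 of 3 Gadd45a-KO arrays, at 1.47, 1.71 and 2.33, and on 3 of 3 Ing1-KO arrays, at 4.87, 5.87 and 5.27. Sycp1 was at least 2.72-fold lower in Gadd45a-KO, and it was above background on 0 of 3 DKO and 0 of 3 WT arrays too. The limma adjusted p of 0.0228 belongs to the measured difference and not to the bound. At its smallest over the alternatives the log2 fold change of Sycp1 was -0.652, less than the bound. The filter asks for 3 of the 12 arrays, so Sycp1 entered the test through the Ing1-KO arrays alone. Its low level in the other groups is therefore no separate result. The measured means were 1.84 ± 0.44 in Gadd45a-KO and 5.33 ± 0.50 in Ing1-KO, and 2.56 ± 0.58 in DKO and 2.15 ± 0.52 in WT (SD, n = 3 each). A pair of unnamed probes showed another pattern. They were designed, per the file headers, on mm9 to genomic intervals at chr6:67016874-67030651 and chr6:67054389-67054857, on the chromosome that carries Gadd45a. RefSeq places Gadd45a at chr6:67035096-67037407 on GRCm38.p6, so the intervals lie in its neighbourhood. The builds differ, so no distance is given, and a link to the deletion was not tested. Both probes are named here after their values were seen. The first read 1.79, 2.81 and 2.48 in Gadd45a-KO, against 4.93, 4.68 and 5.42 in Ing1-KO, and was at least 2.17-fold lower. The second read 2.63, 1.64 and 2.51 in Gadd45a-KO, against 5.53, 4.54 and 4.38 in Ing1-KO, and was at least 1.90-fold lower. Both had a limma adjusted p of 0.0470, for the measured difference and not for the bound. Both were above background on 0 of 3 Gadd45a-KO and 2 of 3 Ing1-KO arrays, as well as on 0 of 3 DKO arrays. Of the WT arrays 2 of 3 and 1 of 3 were above background.

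Gene lists were then described by their counts and medians beside 0.245% of features called and a median of 0.04 over all features. Counts of positive and negative members stand beside 55.4% of all features with a positive and 44.6% with a negative value. Of 732 measured members of 47 lists, 8 passed: Ing1, Gadd45a, Ccl8, Ccl12, Cx3cr1, Csf1r, Cd207 and Cxcr2, all of them higher in Gadd45a-KO. With the slide as a block there were 14, the additional ones being Camp, Ngp, Lcn2, Acadl, Aldh6a1 and Mmut. A list's level on an array is given as the median over its members of the deviation from each gene's mean over the 12 arrays. On this measure all 3 Gadd45a-KO arrays lay above all 3 Ing1-KO arrays for 15 lists and below them for 11, and the groups overlapped for 21. Of single features 18.4% lay above and 12.3% below in the same way. Some lists share members, and all were chosen with earlier results of these data known, so the lists are not independent cases.

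Immune cell lists had higher values in Gadd45a-KO. Neutrophil markers had the largest median, 2.49 over 15 measured members of 17, of which 1, Cxcr2, rose and 14 were positive, and 12 members were above background on all 6 arrays. The groups did not overlap on the levels given above, but Gadd45a-KO replicate 1 stood far above the other arrays, and without it the median was 1.55. The antimicrobial peptide gene Camp had 11.94, 10.55 and 9.08 in Gadd45a-KO, against 8.18, 6.46 and 6.77 in Ing1-KO, and did not pass with 3.39 ± 0.63 and an adjusted p of 0.0566. Ngp, a granule protein gene with 4.19 ± 0.88, and the iron-binding lipocalin gene Lcn2 with 2.13 ± 0.48 did not pass either, at adjusted p of 0.0760 and 0.0902. Macrophage markers had a median of 0.49 over 18 members, of which 2, Cx3cr1 and Csf1r, rose. Of the 18, 15 were positive and 3 negative, down to -0.47, and 1 was lower in Gadd45a-KO without overlap. The level of the list was 0.37 to 0.42 in Gadd45a-KO, against -0.26 to -0.04 in Ing1-KO. The lysozyme genes Lyz1 with 0.65 ± 0.15 and Lyz2 with 0.63 ± 0.22 did not pass.

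Lymphocyte and antigen presentation lists had positive values in nearly every member, and 1 gene of them passed. All 17 T cell markers were positive with a median of 0.54 and 0 called, for example Thy1 with 0.58 ± 0.19 and the coreceptor gene Cd8a with 0.78 ± 0.31. T cell levels were 0.35, 0.35 and 0.68 in Gadd45a-KO, against -0.42, 0.22 and -0.15 in Ing1-KO, so Ing1-KO replicate 2 came near the Gadd45a-KO arrays, and without Ing1-KO replicate 1 the median was 0.36. All 16 markers of NK and cytotoxic lymphocytes were positive with a median of 0.66 and 0 called, led by their transcription factor gene Tbx21 with 0.87 ± 0.23 (adjusted p 0.131). All 13 genes of MHC class II presentation were positive too, with a median of 0.51 and 0 called, among them the thiol reductase gene Ifi30 with 0.63 ± 0.19 and H2-Eb1 with 0.51 ± 0.16. Of 14 dendritic cell markers, 1, Cd207, rose and 13 were positive, with a median of 0.53. B cell and plasma cell markers had a median of 0.37 over 15 members and mast cell markers 0.44 over 11, with 0 called in both. Genes of cell division and DNA replication were positive in 24 of 25 with a median of 0.42, or 0.28 without Ing1-KO replicate 1, 0 called, and the survivin gene Birc5 at 0.67 ± 0.25. All 20 cytosolic ribosomal protein genes were positive with a median of 0.36 and 0 called, and that median was 0.15 with quantile normalization. Interferon-stimulated genes had a median of -0.05 over 20 members, complement and acute phase genes 0.18 over 19 and senescence genes with their secreted factors 0.15 over 19, with 0 called in each. The interferon median turned in sign with single arrays, from -0.35 without Ing1-KO replicate 3 to 0.13 without Ing1-KO replicate 1, and was 0.02 without Gadd45a-KO replicate 3. The complement median turned to -0.03 with quantile normalization, and was 0.06 without Gadd45a-KO replicate 3 and 0.09 without Ing1-KO replicate 3.

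**Figure D4:**
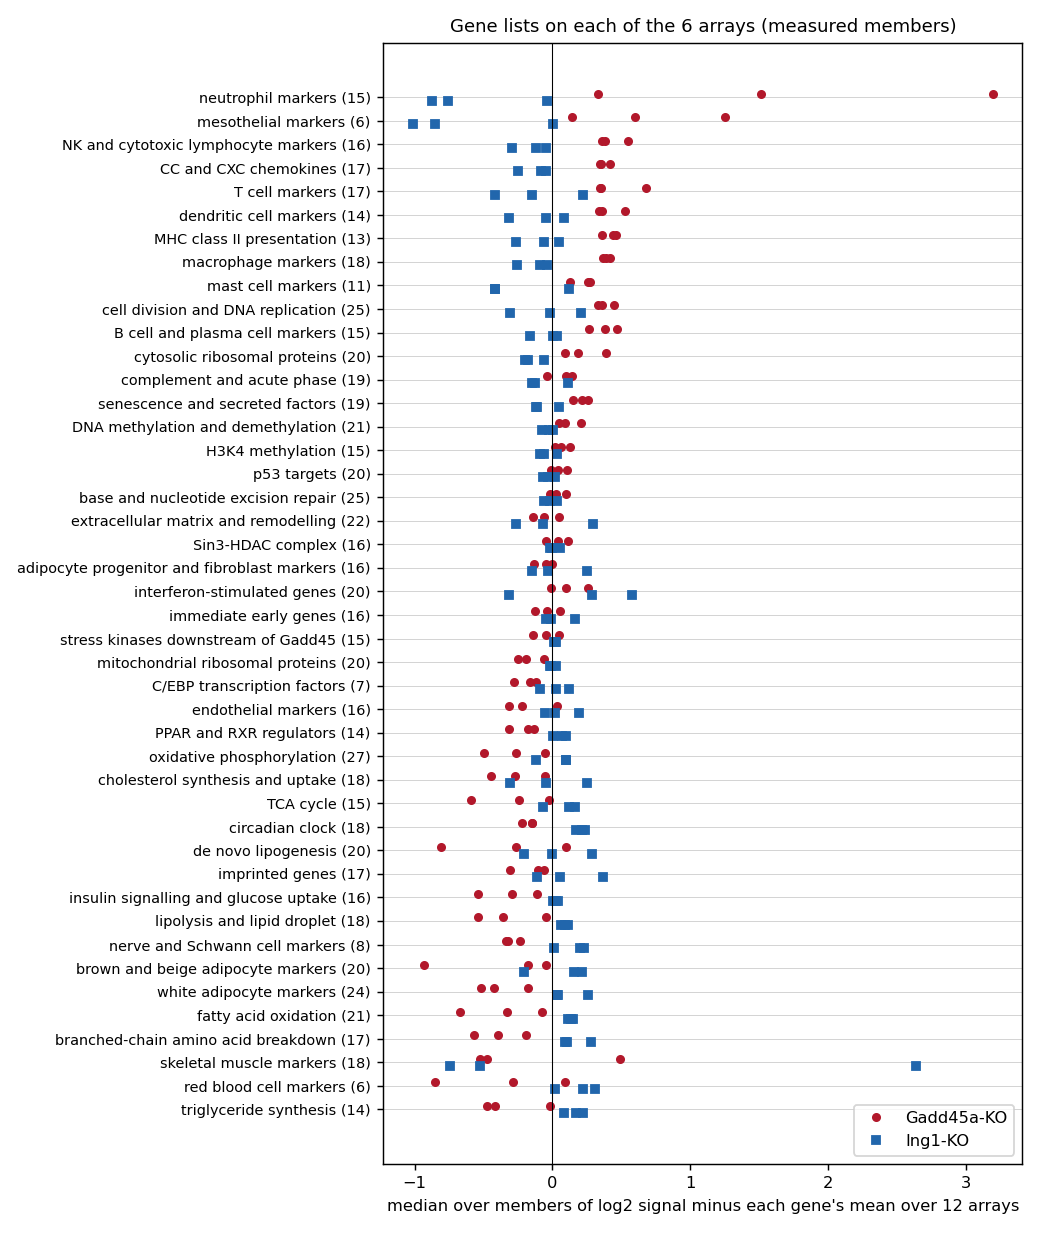
Level of each gene list (rows, with the number of measured members; lists with at least 6) on each of the 6 arrays, as the median over members of the log2 signal minus each gene's mean over 12 arrays. Red circles are Gadd45a-KO and blue squares Ing1-KO; immune lists in the upper rows have the circles to the right, lists of fat cell metabolism in the lower rows have them to the left, and single arrays lie far out for neutrophil and skeletal muscle markers.

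Genes of the fat cell and of its metabolism had lower values in Gadd45a-KO, with no member past the threshold. Of 24 white adipocyte markers 22 were negative, with a median of -0.47, and the list's level was -0.18, -0.43 and -0.52 in Gadd45a-KO, against 0.25, 0.04 and 0.04 in Ing1-KO. The groups did not overlap. G0s2, an inhibitor of the lipase Pnpla2, averaged 11.84 ± 0.14 in Gadd45a-KO and 12.69 ± 0.21 in Ing1-KO (SD, n = 3 each). The groups did not overlap, and the limma fit gave -0.85 ± 0.18 with an adjusted p of 0.0735. The hormone-sensitive lipase gene Lipe had -0.84 ± 0.25 and the fatty acid transporter gene Cd36 -0.63 ± 0.18, at adjusted p of 0.162 and 0.159. In triglyceride synthesis all 14 members were negative; the list's median was -0.59, and -0.32 without Gadd45a-KO replicate 3. Lpin1, which makes diacylglycerol from phosphatidate, had -0.95 ± 0.21 (adjusted p 0.0838), and Dgat1, the enzyme of the last step, had -0.80 ± 0.20 (adjusted p 0.119). In fatty acid oxidation 20 of 21 were negative with a median of -0.51. Its member Acadl, a long-chain acyl-CoA dehydrogenase, had 12.79, 12.84 and 12.64 in Gadd45a-KO, against 13.38, 13.52 and 13.51 in Ing1-KO, a value of -0.71 ± 0.14 with an adjusted p of 0.0635. All 17 genes of branched-chain amino acid breakdown were negative with a median of -0.51, and 16 of them did not overlap between the groups, where 12.3% of all features lay below in the same way. Aldh6a1 of valine breakdown had -0.70 ± 0.16 (adjusted p 0.101) and Mmut, the methylmalonyl-CoA mutase gene, -0.60 ± 0.15 (adjusted p 0.117).

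Mitochondrial and regulatory lists leaned the same way by less and with overlap in some. All 15 TCA cycle genes were negative with a median of -0.35, all 27 oxidative phosphorylation genes with -0.28 and all 20 de novo lipogenesis genes with -0.36, and the groups overlapped on each list. In these lists Gadd45a-KO replicate 3 was the lowest array, at -0.59, -0.50 and -0.81, and without it the median was -0.23 for the TCA cycle and -0.12 for lipogenesis. The lipogenesis median was -0.58 without Gadd45a-KO replicate 1 and -0.22 without Ing1-KO replicate 3. Brown and beige adipocyte markers had a median of -0.46 over 20 members, -0.10 without Gadd45a-KO replicate 3, -0.69 without Gadd45a-KO replicate 1 and -0.29 without Ing1-KO replicate 2, and the transcription factor genes Tbx1 and Ebf2 in it had 0.94 ± 0.20 and -0.72 ± 0.17. With array column as a block the medians were -0.56 for the TCA cycle, -0.47 for oxidative phosphorylation, -0.68 for lipogenesis and -0.81 for brown and beige markers. Within slides 1, 2 and 3 the medians were 0.02, -0.39 and -0.71 for the TCA cycle and 0.08, -0.35 and -0.64 for oxidative phosphorylation. They were 0.26, -0.24 and -1.10 for lipogenesis and 0.40, -0.49 and -1.15 for brown and beige markers. Circadian clock genes were negative in 16 of 18, with a median of -0.36 and levels of -0.22 to -0.15 in Gadd45a-KO, against 0.17 to 0.24 in Ing1-KO; the repressor gene Per2 had -0.91 ± 0.32 and Nr1d2 -0.46 ± 0.15. Lipolysis and lipid droplet genes had a median of -0.44 over 18 members, cholesterol synthesis and uptake -0.28 over 18 (-0.15 without Gadd45a-KO replicate 3 and -0.18 without Ing1-KO replicate 3) and mitochondrial ribosomal proteins -0.16 over 20. Insulin signalling and glucose uptake had a median of -0.41 over 16 members with the receptor gene Insr at -0.67 ± 0.19. PPAR and RXR regulators had -0.26 over 14 members. Among 7 C/EBP factors the median was -0.21, with Cebpg at -0.50 ± 0.10 (adjusted p 0.0722), Cebpa, the master regulator of fat cells, at -0.58 ± 0.22, and Cebpe, which belongs to granulocyte maturation, at 1.58 ± 0.48. None of the members named in this and the preceding paragraph passed.

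Markers of other tissues were measured on the same arrays. Skeletal muscle markers had a level of 0.49, -0.53 and -0.47 in Gadd45a-KO, against 2.64, -0.74 and -0.53 in Ing1-KO, and their median of -0.51 was 0.47 without Ing1-KO replicate 1 and between -1.20 and -0.19 without any other of the 6 arrays. The parvalbumin gene Pvalb had -1.12 ± 1.05. Red blood cell markers had a median of -0.58 over 6 members, and -0.30 without Gadd45a-KO replicate 3, and nerve and Schwann cell markers -0.44 over 8, with 0 called in both. Markers of the mesothelium, which covers the fat pad, had a median of 0.88 over 6 members, 0.68 with 1 member at its lower bound, 0.30 with normexp, 0.39 with the authors' deposited values and 1.48 without Ing1-KO replicate 1, and the keratin gene Krt18 had 10.21, 7.97 and 7.93 in Gadd45a-KO, against 5.29, 5.60 and 5.45 in Ing1-KO, a 9.58-fold difference. Krt18 too was highest in Gadd45a-KO replicate 1, and it did not pass (adjusted p 0.123). Of the 6 mesothelial members 5 were positive. The other, Lrrn4, had -0.67 and was lower in Gadd45a-KO without overlap (adjusted p 0.182, limma). Epididymis and testis markers had a median of 0.30 over 5 measured of 16, and 0.06 without Gadd45a-KO replicate 3, endothelial markers -0.22 over 16, and -0.14 without Gadd45a-KO replicate 3, progenitor and fibroblast markers -0.01 over 16 and extracellular matrix genes 0.01 over 22; the sign of the progenitor and the matrix median turned between alternatives. The part of these tissues in the calls was not tested. None of the genes named in this paragraph passed.

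Among lists close to the functions of the deleted genes, those of DNA methylation, DNA repair and chromatin had 0 called. Of 21 genes of DNA methylation and demethylation 0 passed and 13 were positive, with a median of 0.14; the cytidine deaminase gene Apobec1 had 0.68 ± 0.15 (adjusted p 0.0853) and the dioxygenase gene Tet1 0.55 ± 0.14 (adjusted p 0.114). Genes of base and nucleotide excision repair had a median of 0.02 over 25 members, the Sin3-HDAC complex 0.01 over 16, H3K4 methylation 0.10 over 15, p53 targets 0.09 over 20 and the stress kinases downstream of Gadd45 -0.10 over 15, with 0 called in each. Over the alternatives these medians stayed between -0.153, for the stress kinases, and 0.188, for DNA methylation, and those of repair and of the Sin3-HDAC complex changed sign. Imprinted genes had -0.38 over 17, and -0.24 without Ing1-KO replicate 1, and immediate early genes had -0.09 over 16, and 0.02 without Ing1-KO replicate 1. In the ING family the other 4 members had values from -0.34 to 0.17. The Gadd45 family of 4 measured genes, Gadd45a included, had a median of 0.31, and 0.51 with every probe tested; Gadd45b had 0.57 ± 0.19 (adjusted p 0.196) and Gadd45g 0.05 ± 0.22, and the sign of Gadd45g turned without Gadd45a-KO replicate 3 or Ing1-KO replicate 1.

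The DKO and WT arrays entered the choice of the 77 features through the estimate of the spread and the filter on dim probes, and they show the same features in other pools of animals. With a filter on the 6 compared arrays alone, 75 of the 77 were tested, the pair of chromosome 6 probes being left out. In DKO against WT 72 of the 77 had the opposite sign, where 79.1% of all features did. Of these 72, 67 had an unadjusted p under 0.05 (limma), where 23% of all features did in either direction. The 72 include Sycp1 and an unnamed probe that were above background on 0 of 3 DKO and 0 of 3 WT arrays. Their sign in DKO against WT, at 0.41 and 0.09, therefore carries no information. The 22 that passed in both with opposite sign are among 52 calls of DKO against WT (0.165%). In all, 23 features passed in both, which is 29.9% of the 77 and 44.2% of the 52. Both comparisons use the same estimate of the spread for a feature, and a small estimate favours a low p in each. The 67 and the 23 are therefore set in part by the choice of the 77. The DKO mean lay nearer to Ing1-KO than to Gadd45a-KO for 69 of the 77 and for 77.9% of all features. The WT mean lay nearer to Gadd45a-KO than to Ing1-KO for 50 of the 77 and for 59.1% of all features. It lay between the means of the single knockouts for 59 of the 60 higher features, against 49.5% of all features with a positive difference. For the lower ones this held for 14 of the 17, against 47.2% of all with a negative difference. The called features were chosen for a wide gap between the single-knockout means, which leaves more room for WT. Their higher shares are thus set in part by the choice and show no order of genotypes. Ccl8 had 14.70 ± 0.31 in Gadd45a-KO, 12.23 ± 0.66 in Ing1-KO, 11.87 ± 0.25 in DKO and 13.30 ± 0.34 in WT (SD, n = 3 each). Spaca1 had 7.51 ± 0.18 in Gadd45a-KO, 9.36 ± 0.05 in Ing1-KO, 9.37 ± 0.21 in DKO and 7.92 ± 0.39 in WT, so that WT lay close to Gadd45a-KO and DKO close to Ing1-KO. Of all features 0 passed in Gadd45a-KO against WT (limma) and 1, Ing1, in Ing1-KO against WT (0.00318%); these 2 comparisons share the WT arrays.

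**Figure D5:**
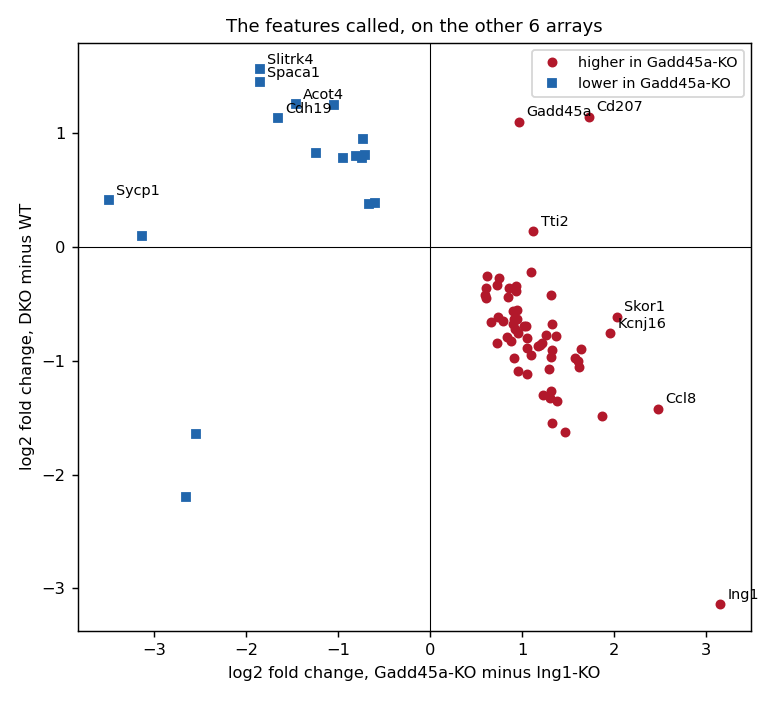
Log2 fold change of DKO minus WT against that of Gadd45a-KO minus Ing1-KO for the 77 features called, with those higher in Gadd45a-KO as red circles and lower ones as blue squares. The axes use different arrays; 72 of the points lie in the upper left and lower right parts of the plot, and Gadd45a, Cd207 and Tti2 are among the 5 that do not.

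The 5 exceptions to the opposite sign are given with their chromosomes. They are Gadd45a, Cd207 and the pair of unnamed probes on chromosome 6, which carries Gadd45a, and Tti2, a gene of kinase assembly, on chromosome 8, which carries Ing1. The probe pair is no independent case, since it passed the filter on dim probes only with the WT arrays and is above background on no DKO array. Gadd45a is itself a targeted gene, so its chromosome was fixed in advance. That leaves Cd207 and Tti2. The share of all features on these chromosomes was not counted, and a link to position was not tested. Cd207 was high in both groups labelled as lacking Gadd45a, at 8.48 ± 0.44 in Gadd45a-KO and 7.88 ± 0.42 in DKO, against 6.75 ± 0.31 in Ing1-KO and 6.74 ± 0.14 in WT (SD, n = 3 each). Tti2 had 11.74 ± 0.15 in Gadd45a-KO and 10.62 ± 0.19 in Ing1-KO, and 11.46 ± 0.25 in DKO and 11.32 ± 0.35 in WT. Within 20 Mb of Gadd45a 2 of 227 named genes tested passed (0.881%), the higher Cd207 and the dynein gene Dnah6. Within 20 Mb of Ing1 3 of 162 did (1.85%), the higher Tti2 and the phospholipid flippase gene Atp11a and the lower Smim19, against 55 of the 15563 other named genes (0.353%). With a block for the row, or one for the column, 0 genes of these neighbourhoods passed, and 0 did when any 1 of the 6 arrays was left out.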

How the data were processed

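RNA from gonadal white fat was hybridised to one-colour Agilent arrays, 3 per genotype, each a pool of 3 animals, with genotypes taken from the labels. The deposited scanner files hold spot intensity values from Feature Extraction 10.7.3.1, per the file headers, in which the processed signal is background-subtracted and detrended within the array. The authors' deposited table holds log2 values of 38927 probes, with limma 3.26.9 named per the submitters' processing notes; its scale looks quantile-normalized, its filter is not given in the sources used here, and it served as an alternative.

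Marked spots were left out, spots averaged per probe, and log2 signals shifted to a common 75th percentile. A probe entered where 3 or more of the 12 arrays had it well above background, and the brightest probe stood for its gene, which gave 31453 features. The limma 3.58.1 fit (R 4.3.3; lmFit, then eBayes with trend and robust steps) used all 12 arrays with 4 genotype means, with two-sided p-values, Benjamini-Hochberg adjustment across the 31453 features and a threshold of 0.05. The scripts were tested on simulated data. A feature not above background on any array of a group has only a bound, computed against the lowest signals well above background. The number of arrays limits precision, and p-values measure the spread between pools.

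Genes were named from the files and RefSeq's table for GRCm38.p6. No coordinates from it but those of the printed promoters and of Gadd45a are given because the array's grid is mm9. Named were Ing1, Gadd45a, up to 15 named genes with the largest rises and falls past the threshold without overlap, and up to 4 members of each list with the smallest p, passing over clones and predicted genes. Other names were chosen after their values were seen. Members and lists were chosen with earlier results of these data known. Replicate number equals slide and scan in the headers. Alternatives covered normalization, background correction (normexp on the median spot signal, offset 50), the authors' values, filters, probes per gene, the variance model, the arrays fitted, blocks for slide, row and column, and leaving out each array.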

Additional observations from a re-analysis of the deposited data

How the results depend on the processing

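The number of features called, 77 as reported, was 29 with centring on the median (65.5% of them higher in Gadd45a-KO, in place of 77.9%), 166 with normexp, 44 with plain empirical Bayes, 445 with only the 6 arrays compared, 21 with array row and 2 with array column as a block, and between 1 and 238 when single arrays were left out. With the replicate number, which is the slide, as a block it was 105, with 14 called list members and 7 called genes near Gadd45a and Ing1; deviations of same-numbered arrays of the compared groups correlated at 0.209, 0.00348 and -0.0125, so the numbers were not treated as pairs. Called list members, 8 as reported, were 13 with normexp, 30 with the 6 arrays alone, 5 with row, 1 with column, and 1 to 11 on leaving out arrays. Called genes near Gadd45a and Ing1, 5 as reported, were 3 with median centring, 8 with normexp, 3 with no filter, 2 with plain empirical Bayes, 14 with the 6 arrays alone, 0 with row, 0 with column, and 0 to 9 on leaving out arrays. Gadd45a was not called with array column as a block, at 0.84 (adjusted p 0.281, limma), and ranged from 0.90 to 1.03 on leaving out arrays. The sign turned for Gadd45gip1 with median centring (-0.0103) and array column (-0.0633) and without Gadd45a-KO replicate 1 (-0.0199) or Ing1-KO replicate 3 (-0.0047; range on leaving out arrays -0.0199 to 0.0746), for Gadd45g without Gadd45a-KO replicate 3 (-0.19) or Ing1-KO replicate 1 (-0.0327; range -0.19 to 0.21), and for Pvalb without Ing1-KO replicate 1 (0.41; range -1.94 to 0.41). The cause was not tested, apart from the smaller number of arrays where arrays were left out. Ing1 kept its call in all alternatives. Each call that an alternative measured kept its direction, 77 of 77, or 69 of 69 and 75 of 75 under the filters on all 12 arrays and on 3 of the 6. Dim probes limit the tested Skor1 probe, Sycp1 and both chromosome 6 probes to bounds.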
